A study of Arabidopsis thaliana with 6 samples.

Results

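Cytochrome P450 genes were followed in *Arabidopsis thaliana* inflorescences, that is, stem apices with buds at all stages and open flowers. Members were taken as genes whose symbol has the form of a P450 name (CYP, a family number, a subfamily letter and a gene number) and which have a probe set of their own on the array, that is, a group of short DNA probes assigned to 1 gene. This gave 23 P450 genes among the 13356 genes with such a probe set. RefSeq (assembly TAIR10.1) holds 236 genes with a symbol of this form, so the other 213 were not analysed here. Of the 23 genes, 19 belong to the CYP71B subfamily, of which RefSeq lists 36. The other 4 are *CYP51G2*, *CYP78A9*, *CYP79A2* and *CYP84A4*, each the only measured member of its subfamily. What follows is therefore mainly an account of CYP71B, and it represents 5 of the 60 P450 subfamilies in RefSeq. The series compared the Landsberg erecta accession without the mutation, called wild type, on 3 arrays, with the mutant *top1α-2* in the same accession, also on 3 arrays, which carries an altered gene for DNA topoisomerase 1. All plants grew in continuous light. The series text describes the 3 arrays of a genotype as biological replicates. The probe set of the mutated gene is unnamed in the annotation used here, so its level gives no check of the labels. Sample titles and descriptions name the mutant samples Trp1, while the source and genotype labels name them top1a-2. They are called *top1α-2* here after the genotype label.

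P450 enzymes are haem proteins of the endoplasmic reticulum or plastid that use molecular oxygen and electrons from a reductase to oxidise small molecules. In plants they form one of the largest enzyme families and act in the synthesis of hormones, cell wall phenolics, cutin, pollen wall lipids, floral volatiles and defence compounds. Names group genes by sequence, with the number for the family and the letter for the subfamily, and many CYP71B genes lie side by side in tandem arrays. Within CYP71B the substrates of most members are unassigned. *CYP71B31* oxidises the floral terpenoid linalool, and *CYP71B6* acts on indole-3-acetonitrile, an indole defence metabolite.

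All values are log2 MAS5 signals, a summary of the probes of a probe set on 1 array. Probe sets differ in how well they bind, so a signal is compared between genotypes and not between genes. Over probe sets above the median signal, pairs of wild-type arrays correlated at 0.955 to 0.977, pairs of *top1α-2* arrays at 0.978 to 0.985, and pairs across genotypes at 0.887 to 0.938. Lists of marker genes of pollen, the tapetum and green tissue differed between the genotypes. The mean of 13 pollen markers was 9.41, 8.69 and 8.81 on the wild-type arrays and 6.98, 7.06 and 7.30 on the *top1α-2* arrays. Of these 13 genes, 12 were called lower and 0 higher by limma, and all 13 had genotypes that did not overlap. Among all 13356 genes 5.41% were called lower and 2.96% higher, and in 13.9% the mutant lay below without overlap. The marker lists were chosen with earlier results of these data known. Of 3 measured tapetum markers 2 were lower, and the list means were 9.72 to 10.02 in *top1α-2* against 10.67 to 11.05 in the wild type. Of 5 green tissue markers 4 were higher, and the list means were 12.17 to 12.34 in *top1α-2* against 11.25 to 11.75. The lowest value of any marker was 2.24, for *ANX1* on *top1α-2* replicate 1, a low signal, and presence of the markers was not tested. The signal of a 3′ actin control over that of its 5′ partner averaged 4.03 ± 0.07 on mutant arrays and 3.57 ± 0.19 on wild-type arrays (log2, SD, n = 3), without overlap, and 5 other such controls overlapped. The part of tissue makeup and RNA quality in the P450 differences was not tested. In whole inflorescences, fewer cells of a type and less RNA per cell cannot be told apart.

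In *top1α-2* inflorescences 3 of the 23 P450 genes were higher and 0 were lower by limma, at an adjusted p under 0.05 over all 22746 probe sets. The 3 were *CYP79A2*, which converts phenylalanine to its oxime at the start of benzyl glucosinolate synthesis, *CYP71B6* and *CYP71B26*. Their log2 differences (*top1α-2* minus wild type) were 2.80, 0.56 and 0.70. Among all 13356 genes 2.96% were called higher and 5.41% lower, so the 23 genes gave 13.0% against 2.96% and 0 against 5.41%, a comparison of small counts on which no test was run. The count of higher genes was 0 without *top1α-2* replicate 1 or 2. It was 1 without *top1α-2* replicate 3, wild-type replicate 1 or wild-type replicate 3, and 3 without wild-type replicate 2. Those 3 included *CYP71B34* in place of *CYP71B6*. The count was 0 with a variance prior without trend and with a plain linear model. At an unadjusted p under 0.05, 4 P450 genes were higher and 3 lower, together 30.4% of the members, where the share of all genes was 21.5%. Genotypes did not overlap in 8 genes, with the mutant above in 5 and below in 3, which is 21.7% and 13.0% of the members, against 12.7% and 13.9% of all genes. The median log2 difference was 0.08 over the P450 genes and −0.01 over all genes, and individual differences ran from −1.92 to 2.80.

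**Figure D1:**
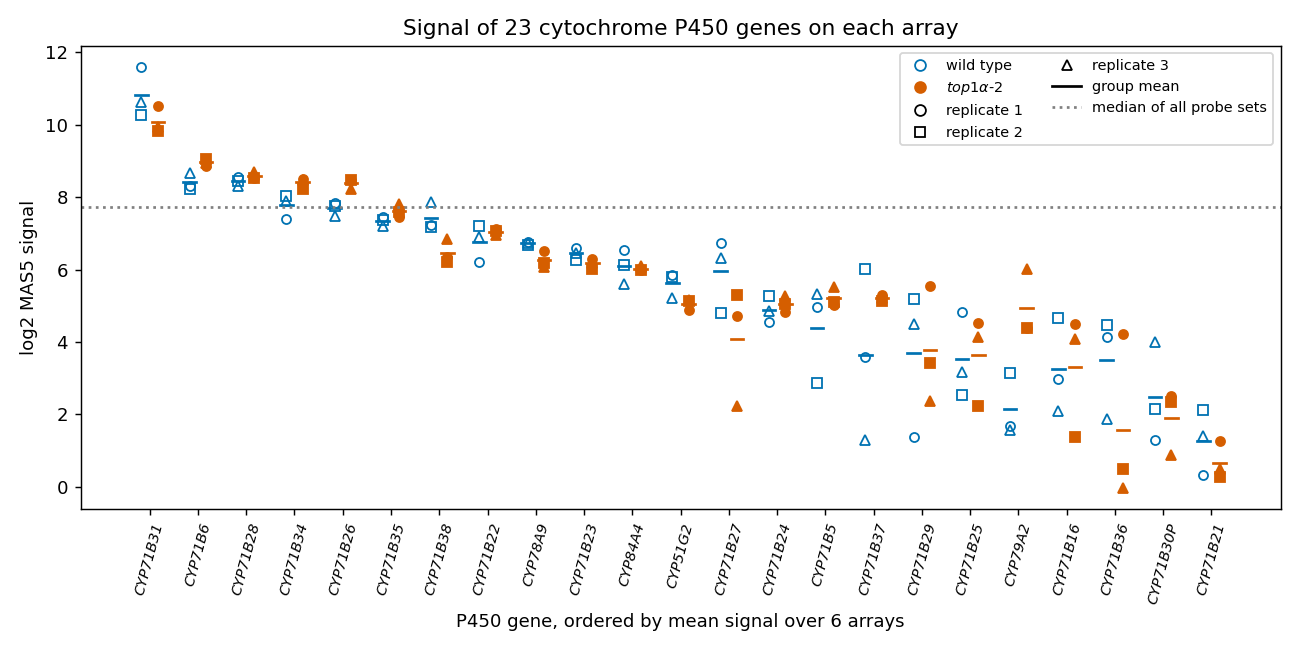
Log2 MAS5 signal (vertical axis) of each of the 23 P450 genes on each array, with open blue symbols for wild type, filled orange symbols for *top1α-2*, a symbol shape for each replicate number and short lines for the means of 3 arrays. The dotted line is the median of all probe sets, at 7.73, and the scatter of single arrays is wide for the genes at the right, which have the lowest signals.

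How firmly a gene could be judged depended on its signal. Of the 23 genes, 5 had a mean signal above the median of all probe sets, which was 7.73, and all 5 are CYP71B genes: *CYP71B31*, *CYP71B6*, *CYP71B28*, *CYP71B34* and *CYP71B26*. The standard error of their difference had a median of 0.16. In the 8 genes between a signal of 5 and that median it was 0.28, and in the 10 genes below 5 it was 0.98, with a highest value of 1.22. The difference found for *CYP71B6* is smaller than the latter error, so a change of its size was not detectable in the dim genes. Of the 5 brighter genes 2 were called higher and 0 lower, against 5.51% and 7.51% of all genes above the median. Of the 18 dimmer genes 1 was called higher and 0 lower, against 0.95% and 3.76% of all genes below it.

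**Figure D2:**
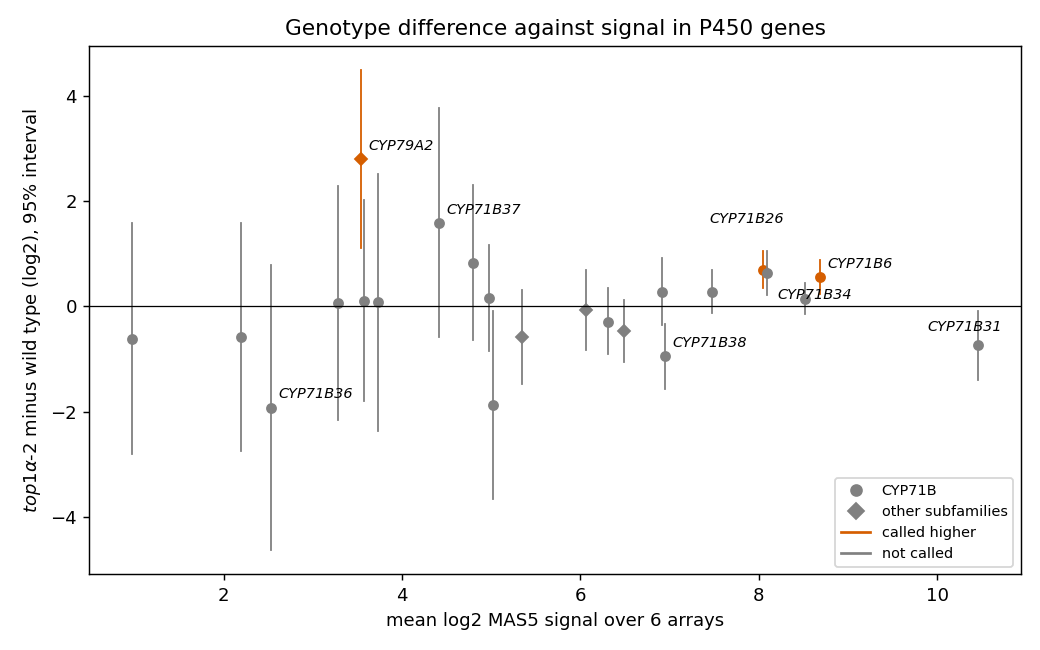
Difference between *top1α-2* and wild type (log2, vertical axis, with the 95% interval of the limma fit) against the mean log2 signal over 6 arrays for the 23 P450 genes, with circles for CYP71B, diamonds for other subfamilies and orange for genes called higher. Intervals are wide at low signal, where *CYP79A2* at 2.80 is the only called gene, and narrow above 7.73, where *CYP71B26* and *CYP71B6* were called.

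*CYP79A2* had the highest difference of the 23 genes. Its locus is AT5G05260, and its signals were 1.69, 3.14 and 1.58 in the wild type and 4.39, 4.39 and 6.02 in *top1α-2*. Every mutant array lay above every wild-type array, and the third mutant array was the highest. The means were 2.14 ± 0.87 and 4.93 ± 0.94 (SD, n = 3), a log2 difference of 2.80 with a 95% interval from 1.10 to 4.49 and a limma adjusted p of 0.0463. The signals are low: unlogged, wild-type values were 2.99 to 8.82 and mutant values 21.0 to 64.9, on arrays whose trimmed mean signal was 500. With 16 added to the unlogged signals the difference was 1.20 at a limma adjusted p of 0.0613, and in 5 of the 6 fits that omit a single array it was not called, at adjusted p values of 0.0863 to 0.204.

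Of 16 listed genes of the glucosinolate pathway, *BCAT4* and *UGT74B1* were measured. *BCAT4*, an aminotransferase that starts the chain elongation of methionine for glucosinolates, had signals of 7.49, 6.51 and 7.99 in the wild type and 8.19, 8.79 and 8.82 in *top1α-2*. It rose by 1.27 with a standard error of 0.33 and a limma adjusted p of 0.0389. *UGT74B1*, a glucosyltransferase that acts on the thiohydroximate intermediates, had means of 9.08 ± 0.13 and 9.35 ± 0.27 (SD, n = 3), which overlapped, and a difference of 0.27 with a 95% interval from −0.06 to 0.60. The CYP79 and CYP83 genes that lead from methionine and tryptophan to glucosinolates were not analysed here.

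*CYP71B6* (AT2G24180) was higher by a smaller amount and at a clear signal. It had 8.32, 8.24 and 8.67 in the wild type and 8.87, 9.07 and 8.96 in *top1α-2*, with each mutant array above each wild-type array. The means were 8.41 ± 0.23 and 8.97 ± 0.10 (SD, n = 3), a 1.47-fold difference with a 95% interval on the log2 scale from 0.24 to 0.88 and a limma adjusted p of 0.0379. It was not called in 5 of the 6 fits that omit a single array, at adjusted p values of 0.078 to 0.13, while the log2 difference stayed between 0.47 and 0.69.

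The largest group of neighbouring members is a block on chromosome 3 from AT3G26150 to AT3G26330, in which RefSeq lists 18 P450 genes, all of CYP71B, and 11 were measured. *CYP71B26* (AT3G26290) was called higher and the other 10 were not called. *CYP71B26* had 7.85, 7.76 and 7.49 in the wild type and 8.49, 8.47 and 8.23 in *top1α-2*, with no overlap. It rose 1.62-fold, from 7.70 ± 0.19 to 8.40 ± 0.14 (SD, n = 3), with a 95% interval on the log2 scale from 0.34 to 1.06 and a limma adjusted p of 0.0228. It was not called in 3 of the 6 fits that omit a single array (*top1α-2* replicate 1 or 2, or wild-type replicate 3), at adjusted p values of 0.0804 to 0.094.

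The next measured gene along the block, *CYP71B34* (AT3G26300), differed in the same direction without reaching the threshold. Its signals were 7.40, 8.03 and 7.90 in the wild type and 8.50, 8.24 and 8.48 in *top1α-2*. The groups did not overlap, the difference was 0.63 with a 95% interval from 0.21 to 1.05, and the limma adjusted p was 0.0658. It passed after median centring of the arrays, at 0.0481, with only the probe sets above the median signal, at 0.047, and without wild-type replicate 2, at 0.0394. *CYP71B35* (AT3G26310), immediately next to it, had 7.45, 7.36 and 7.21 in the wild type and 7.46, 7.59 and 7.82 in *top1α-2*. The lowest mutant value lay just above the highest wild-type value, and the difference of 0.28 had a 95% interval from −0.13 to 0.70. Members of 1 tandem array are similar in sequence, so their probe sets may share signal, which was not tested.

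The remaining 8 genes of the block were dimmer. *CYP71B22* (AT3G26200) had wild-type values of 6.21 to 7.21 and mutant values of 6.95 to 7.13, with a difference of 0.28. *CYP71B23* (AT3G26210) had 6.28 to 6.61 and 6.02 to 6.30, with a difference of −0.29. In both genes the genotypes overlapped, and the 95% intervals ran from −0.35 to 0.91 and from −0.91 to 0.34. *CYP71B24* (AT3G26230) had means of 4.89 and 5.05 and a difference of 0.16.

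*CYP71B37* and *CYP71B36*, at the end of the block, had the widest differences in it, and neither was called. *CYP71B37* (AT3G26330) had 3.59, 6.01 and 1.28 in the wild type and 5.29, 5.14 and 5.21 in *top1α-2*. Its mutant arrays were nearly equal while its wild-type arrays spread on both sides of them, and the difference of 1.59 had a 95% interval from −0.59 to 3.77. *CYP71B36* (AT3G26320) had 4.13, 4.46 and 1.88 in the wild type and 4.23, 0.50 and −0.02 in *top1α-2*, where the first mutant array lay among the wild-type values. Its difference of −1.92 had a 95% interval from −4.63 to 0.79. The other 3 genes, *CYP71B16*, *CYP71B21* and *CYP71B25*, had differences of 0.07, −0.61 and 0.11, standard errors of 0.86 to 1.00 and overlapping groups. The median difference over the 11 genes of the block was 0.16, against −0.25 over the 8 CYP71B genes elsewhere. The standard error of a single gene had a median of 0.45 in the block and 0.48 elsewhere. No test was run on the 2 medians, and no difference between them is shown.

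**Figure D3:**
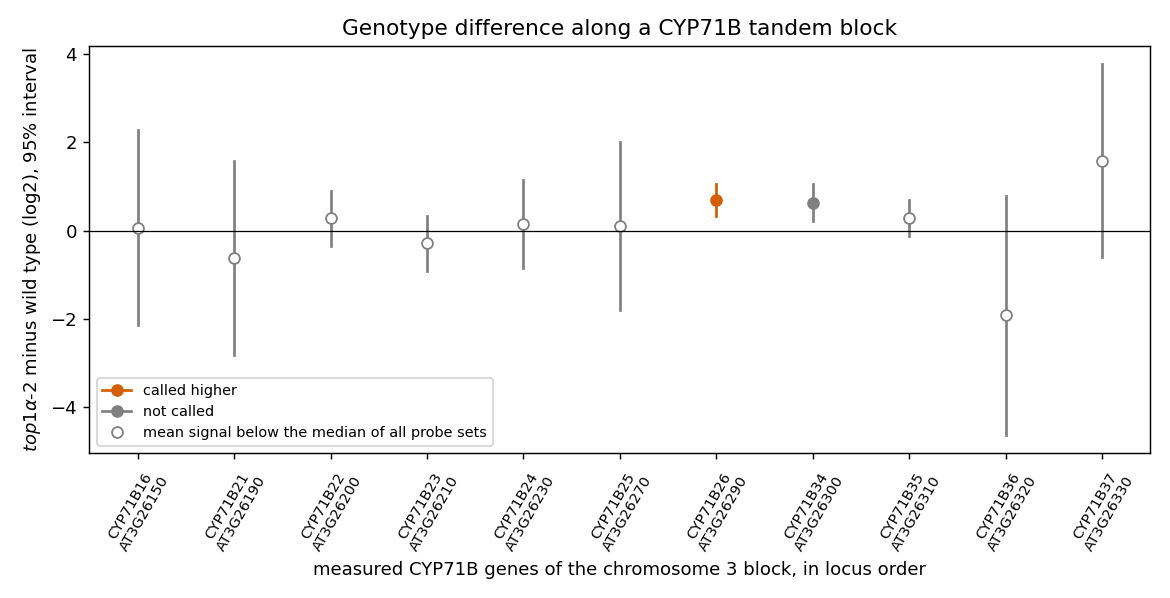
Difference between *top1α-2* and wild type (log2, with 95% interval) for the 11 measured CYP71B genes from AT3G26150 to AT3G26330, equally spaced in locus order, with filled symbols for genes above the median signal. *CYP71B26* at 0.70 was called, and its measured neighbours *CYP71B34* and *CYP71B35* had 0.63 and 0.28.

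*CYP71B31* (AT3G53300), a linalool-oxidising enzyme of flowers, lay at the 89.7th percentile of signal among all probe sets. It had 11.60, 10.26 and 10.62 in the wild type and 10.51, 9.82 and 9.94 in *top1α-2*. The first array was the highest in both genotypes, and the genotypes overlapped because the first mutant array lay above the second wild-type array. The means were 10.83 ± 0.69 and 10.09 ± 0.37 (SD, n = 3), a difference of −0.74 with a 95% interval from −1.39 to −0.08 and a limma adjusted p of 0.165. Without wild-type replicate 1 the difference was −0.35, and without wild-type replicate 2 it was −1.02 at a limma adjusted p of 0.0503. Among the wild-type arrays, replicate 1 also had the highest mean of the pollen markers, 9.41 against 8.69 and 8.81. It had the lowest mean of the green tissue markers, 11.25 against 11.75 and 11.71. The relation of *CYP71B31* to these markers was not tested.

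Of 10 listed terpene synthase genes, 2 were measured. *TPS11* (AT5G44630), which makes sesquiterpenes in flowers, had 11.45, 10.92 and 11.43 in the wild type and 10.66, 10.94 and 10.94 in *top1α-2*. *TPS24* (AT3G25810), which makes monoterpenes, had 9.68, 8.82 and 9.45 against 8.61, 8.54 and 8.85. The genotypes overlapped in both, through the second wild-type array. The differences were −0.42 and −0.65, with limma adjusted p values of 0.126 and 0.074, so that *CYP71B31* and both synthases had lower means in the mutant and none of the 3 was called in the fit on genotype alone.

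The neighbours of *CYP71B31* on chromosome 3 were much dimmer than the median of all probe sets. *CYP71B5* (AT3G53280) had 4.98, 2.86 and 5.33 in the wild type and 5.02, 5.11 and 5.53 in *top1α-2*, a difference of 0.83 with a 95% interval from −0.64 to 2.30. *CYP71B30P* (AT3G53290), whose name marks it as a pseudogene though RefSeq lists it as protein coding, had 1.30, 2.15 and 4.0 against 2.51, 2.33 and 0.87. Both overlapped between the genotypes, and their direction cannot be read from these arrays.

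**Figure D4:**
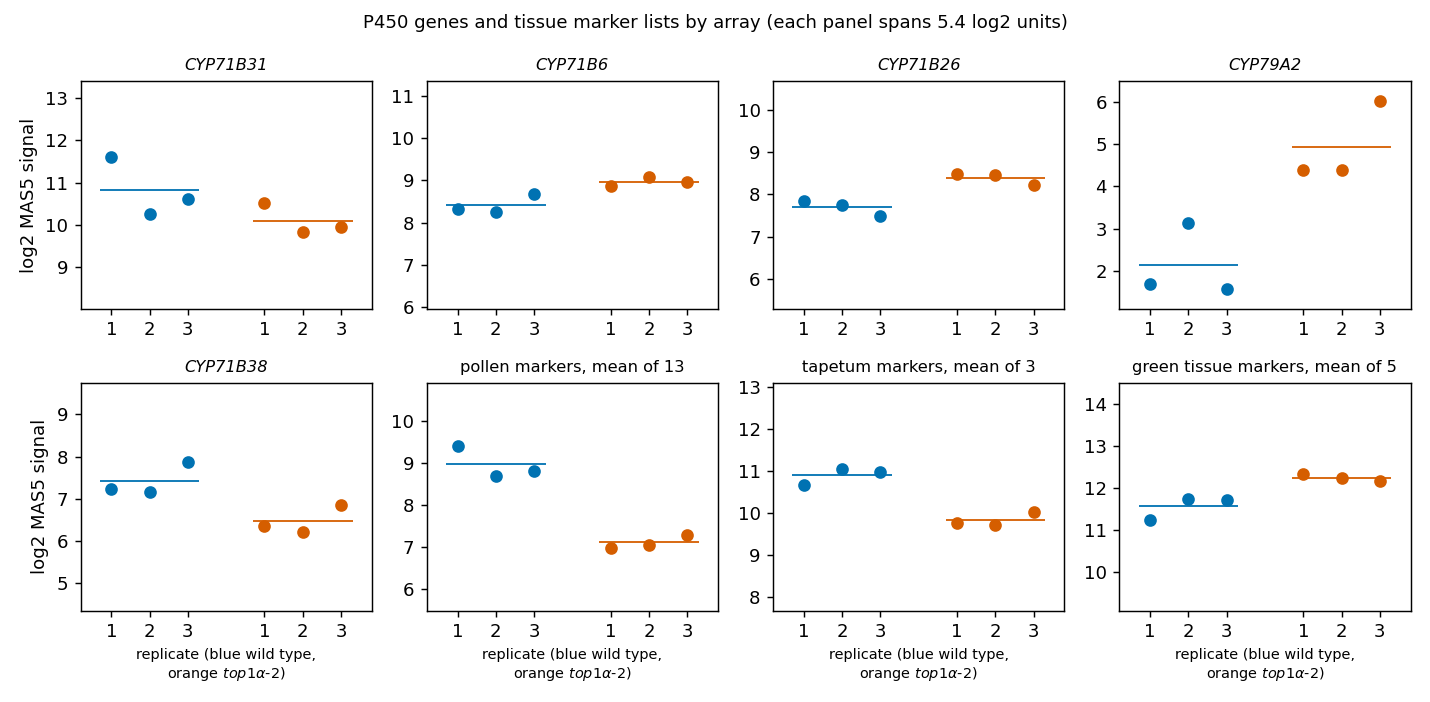
Log2 MAS5 signal on each array for 5 P450 genes and the mean of 3 marker lists (13 pollen, 3 tapetum and 5 green tissue genes), with blue for wild type, orange for *top1α-2* and lines for group means. All panels span the same number of log2 units around their own centre, and wild-type replicate 1 is the highest wild-type array for *CYP71B31* and for the pollen markers and the lowest for the green tissue markers.

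*CYP71B38* (AT3G44250), which has no measured P450 neighbour, was the only CYP71B gene whose mutant arrays all lay below the wild-type arrays. Its signals were 7.23, 7.17 and 7.87 in the wild type and 6.35, 6.22 and 6.85 in *top1α-2*. The third array was the highest in both genotypes. The difference was −0.95, with a 95% interval from −1.57 to −0.33 and a limma adjusted p of 0.0617. It was therefore not called in the fit on genotype alone, and with each array left out of that fit the adjusted p was 0.0612 to 0.209.

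On chromosome 1, *CYP71B28* (AT1G13090) had the narrowest interval of the 23 genes. Its values were 8.57, 8.45 and 8.31 in the wild type and 8.54, 8.53 and 8.71 in *top1α-2*, a difference of 0.15 with a 95% interval from −0.14 to 0.44. A change of the size of *CYP71B26* lies outside that interval. Its neighbour *CYP71B29* (AT1G13100) had wild-type values between 1.38 and 5.20 and mutant values between 2.36 and 5.54. Those spreads leave its difference of 0.08 with an interval from −2.37 to 2.52. *CYP71B27* (AT1G13070), a transcribed pseudogene in RefSeq, had 6.74, 4.79 and 6.33 in the wild type and 4.73, 5.29 and 2.24 in *top1α-2*. The genotypes overlapped, as the highest mutant value, 5.29, lay above the lowest wild-type value, 4.79. The difference of −1.87 had a limma adjusted p of 0.196.

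The other 3 members outside CYP71B were not called. *CYP78A9* (AT3G61880), of a subfamily that controls the size of floral organs, fruits and seeds, had 6.75, 6.69 and 6.74 in the wild type and 6.51, 6.19 and 6.07 in *top1α-2*. The mutant arrays all lay below the wild-type arrays, which were nearly equal, and the difference of −0.47 had a 95% interval from −1.06 to 0.12 and a limma adjusted p of 0.33. *CYP51G2* (AT2G17330), a transcribed pseudogene related to the sterol demethylase gene of plants, had 5.85, 5.81 and 5.23 against 4.88, 5.12 and 5.15. Its genotypes were also separated, and the difference of −0.58 had a limma adjusted p of 0.435. *CYP84A4* (AT5G04330), which acts in the synthesis of the phenolic arabidopyrones, had means of 6.09 ± 0.46 and 6.02 ± 0.07 (SD, n = 3) and a difference of −0.06 with a 95% interval from −0.82 to 0.69.

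Set side by side, the 19 CYP71B genes had a median difference of 0.11 and a range from −1.92 to 1.59, with 12 positive and 7 negative. With single arrays left out this median ranged from −0.33, without *top1α-2* replicate 1, to 0.26. Without wild-type replicate 1 it was −0.01, so its sign rests on these 2 arrays. The 4 genes of other subfamilies had a median of −0.27 and a range from −0.58 to 2.80, with 1 positive and 3 negative. Wild-type means spanned 1.27 to 10.83 in CYP71B and 2.14 to 6.73 in the other 4. The 2 sets overlap in both measures, and with 1 gene per subfamily outside CYP71B no difference between subfamilies can be shown.

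Other genes on the pathways of P450 enzymes were few. Of 120 listed loci 10 were measured, and 3 of the 12 lists held a called gene, 1 in each. Some of the 12 lists had no measured gene. Among all 13356 genes 2.96% were called higher and 5.41% lower, and no test was run on these small counts. Besides *BCAT4* the called genes were *SHT* and *JMT*, which methylates jasmonic acid. *SHT*, a spermidine acyltransferase of the tapetum, fell by 1.57 (wild type 11.73 ± 0.07, mutant 10.16 ± 0.21, SD, n = 3) at a limma adjusted p of 5.21e-05. *JMT* had 10.86, 10.23 and 10.79 in the wild type and 9.40, 9.35 and 9.46 in *top1α-2*, a fall by 1.22 with a limma adjusted p of 0.000711. The tapetum regulator gene *AMS* had a difference of −0.95 at an adjusted p of 0.0671, and the lycopene cyclase gene *LYC* 0.30 at 0.106. *HCT*, of lignin synthesis, and *ATR3*, a gene for a reductase with flavin cofactors, had differences of −0.05 and 0.03, with 95% intervals from −0.34 to 0.23 and from −0.53 to 0.60. The pathways of brassinosteroids, gibberellins, abscisic acid and cutin were not analysed here, because none of their listed genes had a single-gene probe set in the annotation used, and the P450 genes of those pathways likewise.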

How the data were processed

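Biotin-labelled total RNA was hybridised to Affymetrix arrays. The deposited values are log2 signals, made with affy and MAS5 per the submitters' processing notes. Versions and filters are not stated there. After unlogging and trimming 2% of probe sets at each end, signals averaged 500 on every array. From these values 64 control probe sets were set aside and 22746 entered a limma 3.58.1 fit, run under R 4.3.3 (genotype alone, lmFit, eBayes with a trend, Benjamini-Hochberg over all probe sets, threshold 0.05). The 3 arrays per genotype limit the precision. A platform annotation named 1 gene for 13513 probe sets, several for 503 and none for 8730, and 13436 of the first kind matched RefSeq (TAIR10.1) by gene identifier. The brightest probe set per gene was used, and each P450 gene had 1. The 2 several-gene probe sets that name a P450 gene were left out. Of 90 P450 symbols in 15 role lists, 5 were measured. Members, lists and tests were chosen with earlier results of these data known.

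The genes named were all P450 genes called, the brightest, those within 100 AGI locus units of a called one, members of the role lists and called pathway genes. As there are 23, all members were named. Same-numbered arrays had correlations of deviations of 0.095, 0.0886 and 0.2085, and differently numbered arrays −0.0916 to −0.0236. Deviations were taken from the mean of each genotype, so positive values for some pairs go with negative values for others. The negative values are therefore no separate sign of pairing. The labels state no pairing, so the main fit used genotype alone. No sequences were used here.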

Additional observations from a re-analysis of the deposited data

How the results depend on the processing

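Alternatives were median centring, quantile normalization, only the probe sets above the median signal, a variance prior without trend, a plain linear model, a pseudocount of 16, the replicate number as a block, the dimmest probe set of a gene and leaving out each array. Each P450 gene had a single probe set, so taking the dimmest could not change any P450 result. It still counts among the alternatives and the kept comparisons below. The count of P450 genes called higher was 3. It was 0 with the prior without trend and 0 with the plain linear model, where *CYP79A2*, *CYP71B6* and *CYP71B26* had limma adjusted p values of 0.0874, 0.141 and 0.0775 without trend. It ranged from 0 to 3 with single arrays left out. It was 4 after median centring, which moved the median of all genes from −0.01 to 0.09. The count called lower was 0 in each of these and 2 with the replicate block, which called *CYP71B31* and *CYP71B38* at adjusted p values of 0.0104 and 0.0372, left 2 higher and ended the call of *CYP79A2* at 0.0732. The numbers are not shown to pair the arrays, though each array's deviations correlated best with its own number, a hint from the data and not the design. The median difference of CYP71B was 0.56 with only the probe sets above the median signal, where 5 genes remain. With single arrays left out it ranged from −0.33 to 0.26, and that of all P450 genes from −0.33 to 0.18. No called gene changed direction. Of the gene-level comparisons, 278 kept their side of the threshold, 21 lost and 5 gained a call. Most of those kept were genes not called in the main fit, and every loss fell on the 3 called genes. *CYP79A2* was called in 4 of 13 alternatives, *CYP71B6* in 7 of 14 and *CYP71B26* in 9 of 14. Signal limits the rest: in the 10 genes below a log2 signal of 5 the median standard error was 0.98.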
